A study of Mus musculus with 15 samples.

Results

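The transcription factor p53, encoded by Trp53, and 9 of its direct target genes (Mdm2, Ccng1, Bax, Sesn2, Zmat3, Phlda3, Eda2r, Trp53inp1 and Bbc3) were followed in maternal liver before and during pregnancy. These 10 genes were taken by name from the 21702 genes of the deposited count table, and all 10 passed the filter on low counts that left 12172 genes for testing. RNA was sequenced from whole livers of wild-type female C57BL/6N mice (C57BL/6 in the sample labels) of 8 to 14 weeks, 3 per group. Every mouse had received an adeno-associated virus of serotype 8 (AAV8) by tail vein. The methods leave at least 1 week between virus and mating, and the labels do not give the day of injection for each group. For the sequenced livers at 16 dpc, the study states that the virus was given while the mice were not pregnant. AAV8-null mice, which received the empty vector, were non-pregnant (NP) or at 8 or 16 days post coitum (dpc), and AAV8-p21 mice, which received the coding sequence of p21, were at 8 or 16 dpc. There was no NP AAV8-p21 group, so the p21 vector was compared with the null vector in pregnant livers. Both vectors carry the TBG promoter, which is active in hepatocytes, while the RNA comes from all cells of the liver.

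In a resting cell p53 is made but kept low, because Mdm2 attaches ubiquitin to it and marks it for destruction. DNA damage and other stresses stop this, p53 protein accumulates and binds pairs of half-sites in DNA, and its targets are transcribed, Mdm2 among them as a feedback inhibitor. The gene Cdkn1a, which encodes p21, is another direct target, and p21 blocks cyclin-dependent kinases and through the DREAM complex turns off genes of cell division. The AAV8-p21 vector supplies p21 without going through p53, which is why the other targets can be read beside it. Since p53 is regulated mainly as a protein, the level of Trp53 mRNA is not a measure of p53 activity.

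The promoters are shown because the p53 half-site is what the target genes have in common by definition. RefSeq promoter windows of GRCm38.p6, running from 250 bases before to 50 bases after the transcription start, were found for 8 of the 10 genes. The half-site was searched by its published pattern, which is its own reverse complement, so that 1 search covers both strands. Of these 8 genes, Trp53, Mdm2, Ccng1 and Bax had 1 half-site each, all upstream of the start, while 8.36% of the 32851 windows of all genes held at least 1. A full site, defined as a pair of half-sites at most 13 bases apart, was in none of the 8 genes and in 0.0731% of all windows. Of the 2 windows of Cdkn1a, the gene of the vector, 1 held a full site and the other held no half-site. The half-site is in capitals in the sequences below, each read 5′ to 3′ on the strand of its gene.
Ccng1, chr11:40755432-40755501, minus strand: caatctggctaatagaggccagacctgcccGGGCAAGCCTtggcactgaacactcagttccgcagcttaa
Mdm2, chr10:117710905-117710974, minus strand: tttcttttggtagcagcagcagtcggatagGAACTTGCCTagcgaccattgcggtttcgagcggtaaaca
Trp53, chr11:69580254-69580323, plus strand: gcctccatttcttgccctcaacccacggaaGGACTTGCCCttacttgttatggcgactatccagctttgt
Bax, chr7:45467060-45467129, minus strand: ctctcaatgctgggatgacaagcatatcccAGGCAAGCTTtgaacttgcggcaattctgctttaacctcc
Cdkn1a, chr17:29090876-29090945, plus strand: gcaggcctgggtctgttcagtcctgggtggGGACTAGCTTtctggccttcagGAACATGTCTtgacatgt
A match says only that these letters are present, and no match says only that they are not in this window. Sites further upstream or in introns, where many p53 sites are known to lie, were not searched.

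Counts per library lay between 12280709 and 17615185 and are given as CPM, which are counts scaled to the size of the library after TMM normalization. Beside the 10 genes, 3 features of the libraries touch the results. Mouse 3 of the AAV8-null group at 8 dpc stood apart from mice 1 and 2 of its group in the genes of cell division: Cdc20, which drives the exit from mitosis, was at 21.5 and 26.0 CPM in mice 1 and 2 and at 1.77 CPM in mouse 3. The summed CPM of the 5 hepatocyte markers (Alb, Ttr, Apoa1, Cps1 and Hnf4a) was 73177 to 92853 in AAV8-null livers at 8 dpc and 306463 to 430681 at 16 dpc, against 92094 to 108495 in NP livers. Alb took between 7.90% and 27.8% of all counts in a library. It had up to 4902673 counts, and Apoa1, the next highest of these markers, up to 211452. The hepatocyte sum therefore mostly follows Alb. Of the 5 neutrophil markers, S100a8 and S100a9 were counted in every library, with at most 94 and 153 counts, while Ly6g was at 0 counts in 11 of the 15 libraries and at 1 count at most in any. Their summed CPM was 0.305 to 1.66 in NP livers, and in AAV8-null livers 4.64 to 11.8 at 8 dpc and 4.42 to 22.8 at 16 dpc.

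The gene of the vector was checked first. Cdkn1a was at 33.7, 5.12 and 3.29 CPM in the NP AAV8-null livers. The pregnant AAV8-null livers had 27.2, 16.5 and 33.4 CPM (8 dpc) and 64.4, 127 and 59.8 CPM (16 dpc). The AAV8-p21 livers had 648, 628 and 347 CPM (8 dpc) and 1664, 815 and 1093 CPM (16 dpc), so that every AAV8-p21 liver was above every AAV8-null liver. Over both stages the log2 fold change of AAV8-p21 against AAV8-null was 4.11 (SE 0.51, edgeR quasi-likelihood test with Benjamini-Hochberg adjustment over 12172 genes, adjusted p = 0.00251; exact permutation test within stages, p = 0.005, the smallest it can give). At the single stages it was 4.40 at 8 dpc (adjusted p = 0.0873) and 3.83 at 16 dpc (adjusted p = 0.0619), and neither passed the threshold of 0.05 in edgeR. DESeq2 called both (adjusted p = 1.86e-05 at 8 dpc and 0.000208 at 16 dpc), as did voom, edgeR on the compared groups alone and edgeR with no filter on low counts. Counts from the vector and from the mouse's own gene are not separated in this row, and among AAV8-null livers the row was also higher at 16 dpc than in NP livers (log2 fold change 2.58, SE 0.68, adjusted p = 0.0358), a call that was lost in 4 of the 6 fits that left out 1 library of those groups and was at 4.31 (adjusted p = 0.000530) without NP mouse 1.

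The genes were expressed at very different levels. Per kilobase of exon, the mean over the 15 livers was 11.0 CPM for Bax, 10.8 for Trp53inp1 and 9.75 for Ccng1. Mdm2 was at 4.27, Trp53 at 3.18, Sesn2 at 2.79 and Bbc3 at 1.92 CPM per kilobase. Phlda3 (0.777), Zmat3 (0.567) and Eda2r (0.265) were the lowest, and their positions differ once length is considered, since the exons of Zmat3 add up to 11435 bases. Counts for Eda2r ran from 2 to 88 per library and for Phlda3 from 7 to 53, and these genes carry the widest errors of the 10. The reads of Bax share an exon with the predicted gene Gm45808 on the same strand, and its counts are uncertain to that extent, whereas no exon of the other 9 genes overlaps another gene in the annotation used here.

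**Figure D1:**
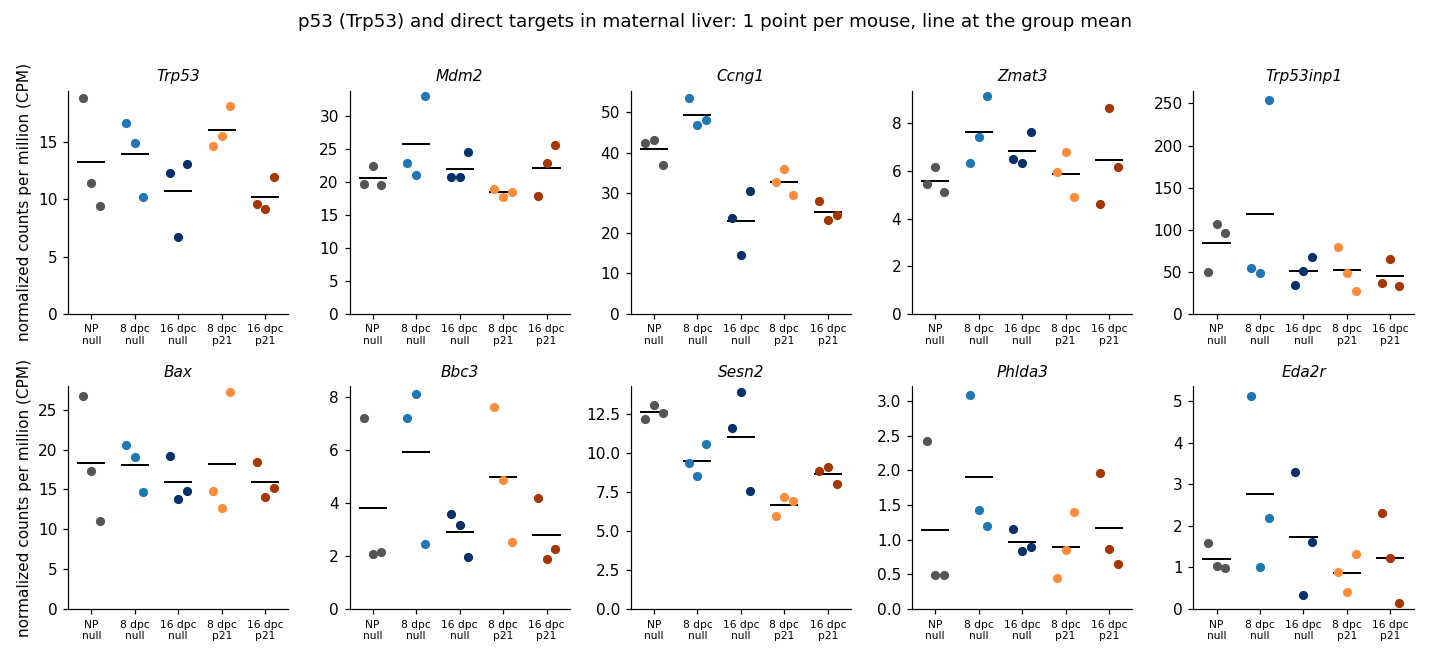
CPM of each of the 10 genes (y axis, linear, from 0) in each of the 15 livers, by group (x axis), with 1 point per mouse and a line at the group mean. Ccng1 shows 14.7 to 30.5 CPM in AAV8-null livers at 16 dpc against 46.9 to 53.5 CPM at 8 dpc, and mouse 3 of the AAV8-null group at 8 dpc is far above the others in Trp53inp1, at 254 CPM.

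Trp53, on chromosome 11 (GRCm38, 69580359 to 69591873, plus strand), was at 18.9, 11.5 and 9.44 CPM in NP livers, and the pregnant AAV8-null livers had 16.6, 14.9 and 10.2 CPM (8 dpc) and 12.3, 6.75 and 13.1 CPM (16 dpc). The AAV8-p21 livers had 14.7, 15.5 and 18.1 CPM (8 dpc) and 9.63, 9.16 and 11.9 CPM (16 dpc). Every AAV8-p21 liver at 16 dpc thus lay below every one at 8 dpc, with a log2 difference of -0.65 (SE 0.29) that did not pass the test (adjusted p = 0.276). In the order of group means, from 16.1 ± 1.81 CPM (SD, n = 3) in AAV8-p21 livers at 8 dpc to 10.2 ± 1.49 CPM in AAV8-p21 livers at 16 dpc, each group's range overlapped that of its neighbour. NP mouse 1 was the highest NP liver for Trp53 and also for Bax, Bbc3, Phlda3, Eda2r and Cdkn1a.

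Mdm2, the ubiquitin ligase that removes p53 (chromosome 10, 117688875 to 117710758, minus strand), was at 19.7, 22.3 and 19.5 CPM in NP livers. At 8 dpc the AAV8-null livers had 22.9, 21.02 and 33.0 CPM and the AAV8-p21 livers 19.0, 17.7 and 18.5 CPM. At 16 dpc these were 20.7, 20.7 and 24.5 CPM with the null vector and 17.8, 22.8 and 25.6 CPM with the p21 vector. All AAV8-p21 livers at 8 dpc lay below both the NP livers and the AAV8-null livers of the same stage, while the 2 groups at 16 dpc overlapped.

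Ccng1, which encodes cyclin G1, a target that recruits a phosphatase to Mdm2 (chromosome 11, 40748552 to 40755311, minus strand), was the only gene of the 10 to pass the test in any comparison. It was at 42.5, 43.1 and 36.9 CPM in NP livers and at 53.5, 46.9 and 48.1 CPM in AAV8-null livers at 8 dpc. By 16 dpc the AAV8-null livers had 23.8, 14.7 and 30.5 CPM. The AAV8-p21 livers had 32.7, 35.9 and 29.4 CPM (8 dpc) and 28.0, 23.3 and 24.4 CPM (16 dpc). By group means the order ran from AAV8-null at 8 dpc (49.5 ± 3.53 CPM, SD, n = 3) through NP (40.8 ± 3.40), AAV8-p21 at 8 dpc (32.7 ± 3.24) and AAV8-p21 at 16 dpc (25.2 ± 2.49) to AAV8-null at 16 dpc (23.0 ± 7.96). The ranges of neighbours in this order did not overlap except for the last pair, both vectors at 16 dpc.

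The targets that act in cell death are Bax, which permeabilizes the outer mitochondrial membrane, and Bbc3, whose product PUMA activates it. Bax (chromosome 7, 45461697 to 45466898, minus strand) was at 26.7, 17.4 and 11.05 CPM in NP livers and at 20.5, 19.1 and 14.7 CPM in AAV8-null livers at 8 dpc. At 16 dpc it was at 19.2, 13.7 and 14.9 CPM in AAV8-null and at 18.4, 14.03 and 15.2 CPM in AAV8-p21 livers, and at 8 dpc AAV8-p21 livers had 14.9, 12.6 and 27.2 CPM. All of its groups overlapped. Bbc3 (chromosome 7, 16308393 to 16318205, plus strand) ranged more than 3-fold within NP livers (2.07 to 7.20 CPM), within AAV8-null livers at 8 dpc (2.44 to 8.10 CPM) and within AAV8-p21 livers at 8 dpc (2.52 to 7.60 CPM). At 16 dpc it lay between 1.96 and 3.57 CPM in AAV8-null and between 1.89 and 4.17 CPM in AAV8-p21 livers.

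Eda2r and Phlda3 are targets at the cell membrane. Eda2r, on the X chromosome (97333840 to 97377216, minus strand), encodes a receptor of the tumour necrosis factor receptor family that binds ectodysplasin A2. It lay between 0.979 and 1.59 CPM in NP livers, and mouse 1 of the AAV8-null group at 8 dpc was the highest of all livers at 5.12 CPM, against 1.01 and 2.18 CPM in mice 2 and 3. Phlda3, which competes with Akt for membrane lipids (chromosome 1, 135766119 to 135769136, plus strand), was highest in the same liver, at 3.08 CPM against 1.43 and 1.20 CPM in mice 2 and 3. The other groups lay between 0.444 and 2.42 CPM.

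Sesn2, Zmat3 and Trp53inp1 act in metabolism, RNA processing and autophagy. Sesn2 encodes sestrin 2, a leucine-binding inhibitor of mTORC1 that is also induced through p53-independent stress responses (chromosome 4, 132492032 to 132510501, minus strand). It was at 12.2, 13.1 and 12.6 CPM in NP livers, at 9.37, 8.51 and 10.6 CPM in AAV8-null livers at 8 dpc and at 5.97, 7.19 and 6.93 CPM in AAV8-p21 livers at 8 dpc. At 16 dpc it was at 11.6, 13.9 and 7.56 CPM in AAV8-null and at 8.86, 9.09 and 8.01 CPM in AAV8-p21 livers. The NP livers were thus above all livers at 8 dpc, and at 8 dpc the AAV8-p21 livers were below the AAV8-null livers.

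Zmat3, a zinc finger protein that binds RNA (chromosome 3, 32334792 to 32366014, minus strand), was at 5.10 to 6.15 CPM in NP livers, 6.34 to 9.15 CPM in AAV8-null livers at 8 dpc and 6.33 to 7.65 CPM at 16 dpc, so both pregnant AAV8-null groups lay above the NP livers without overlap. Trp53inp1, which encodes a stress protein that takes part in autophagy (chromosome 4, 11156431 to 11174379, plus strand), was at 50.1, 107 and 96.2 CPM in NP livers and at 54.5, 48.8 and 254 CPM in AAV8-null livers at 8 dpc. The value of 254 CPM, which rests on 4884 counts, belongs to mouse 3, which also had the highest Mdm2 and Zmat3 of all 15 livers and low levels of the genes of cell division. At 16 dpc it was at 34.1, 50.6 and 67.3 CPM in AAV8-null and at 36.4, 64.5 and 33.5 CPM in AAV8-p21 livers, and AAV8-p21 livers at 8 dpc had 78.9, 48.4 and 27.5 CPM.

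The p21 vector was first compared with the null vector at 8 dpc. None of the 10 genes passed the edgeR test, and the same test called 0.0246% of all genes. DESeq2 and voom called 0 of the 10 too, here, at 16 dpc, over both stages and for the interaction. Log2 fold changes of AAV8-p21 against AAV8-null were below 0 in 8 of the 10 genes, against 50.4% of all genes, with a median of -0.49 beside 0.00 over all genes. The ranges of 3 genes did not overlap, all lower in AAV8-p21 livers, where 4.49% of all genes were lower without overlap. These were Ccng1 with a log2 difference of -0.60 (SE 0.21, adjusted p = 0.759), Mdm2 with -0.48 (SE 0.19, adjusted p = 0.828) and Sesn2 with -0.51 (SE 0.20, adjusted p = 0.865). They were also the genes with an unadjusted p under 0.05, of 0.0135, 0.0226 and 0.0265, where 2.69% of all genes were lower at that level. The exact two-sided permutation test on log2 CPM gave p = 0.1 for each, the smallest value it allows with 3 mice against 3.

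These differences were read again without the liver that stood apart. Without mouse 3 of the AAV8-null group, the log2 difference of Ccng1 was -0.62 (unadjusted p = 0.0232), that of Sesn2 -0.42 (unadjusted p = 0.0923) and that of Mdm2 -0.26 (unadjusted p = 0.184). The difference of Trp53inp1, which was -1.21 (SE 0.57, adjusted p = 0.986) with all mice, was 0.00 without this liver. The lowly expressed Eda2r (-1.68, SE 0.80, adjusted p = 0.991) and Phlda3 (-1.10, SE 0.63, adjusted p = 1.0) were at -0.89 and -0.57 without mouse 1 of the AAV8-null group, the highest liver for both. Trp53 (0.21, 95% confidence interval -0.40 to 0.82) and Bax (0.01, -0.67 to 0.68) were the 2 genes above 0. In a whole liver, fewer cells of a type and less RNA per cell cannot be told apart. The summed markers of cholangiocytes were 36.0 to 53.3 CPM in AAV8-p21 livers at 8 dpc against 18.0 to 26.8 CPM in AAV8-null livers, and those of stellate cells or fibroblasts 144 to 215 against 84.6 to 138 CPM. Those of hepatocytes were 105528 to 127664 against 73177 to 92853 CPM and those of neutrophils 1.88 to 2.96 against 4.64 to 11.8 CPM. Those of erythroid cells were 115 to 200.4 against 89.3 to 102 CPM, and the part of these cell types in these differences was not tested. Of the cholangiocyte markers, Spp1 had up to 709 counts in a library, and Krt19, Krt7, Epcam and Sox9 had at most 21, 16, 22 and 36. The cholangiocyte sum, here and below, may thus be mostly Spp1.

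At 16 dpc none of the 10 genes passed the test, at a background of 0.0739% of all genes, and none had an unadjusted p under 0.05 (9.77% of all genes) or ranges without overlap (13.7%). Log2 fold changes were below 0 in 7 of the 10, against 50.0% of all genes, with a median of -0.07 that ran from -0.11 without mouse 2 to 0.08 without mouse 1 of the AAV8-null group. The most precisely measured were Mdm2, at 0.01 with a 95% confidence interval of -0.40 to 0.41, Sesn2, at -0.35 with -0.79 to 0.09, and Ccng1, at 0.13 with -0.33 to 0.59. Bax was at 0.00 with an interval of -0.69 to 0.68 and Trp53 at -0.06 with -0.69 to 0.56. The intervals of Eda2r, Phlda3, Bbc3 and Trp53inp1 each spanned more than 2 on the log2 scale, so changes of a few-fold in either direction were not detectable for them. At 16 dpc the summed markers of hepatocytes were 268529 to 300831 CPM in AAV8-p21 against 306463 to 430681 CPM in AAV8-null livers. Those of cholangiocytes were 19.6 to 43.0 against 8.41 to 17.3 CPM, and the part of these cell types was not tested.

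**Figure D2:**
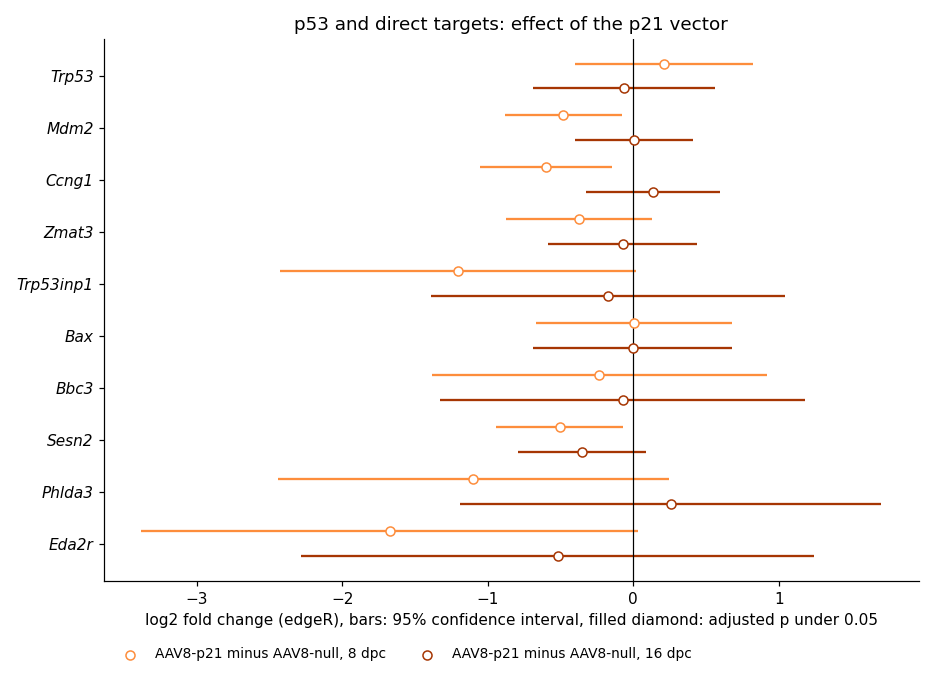
Log2 fold change of AAV8-p21 against AAV8-null livers for the 10 genes at 8 dpc (light) and 16 dpc (dark), with 95% confidence intervals from edgeR. No gene has a filled diamond, which would mark an adjusted p under 0.05, and at 8 dpc the intervals of Mdm2, Ccng1 and Sesn2 lie below 0.

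With both stages averaged, none of the 10 genes passed the test, where 0.131% of all genes did. Sesn2 was the 1 gene of the 10 with an unadjusted p under 0.05, where 12.4% of all genes were at that level. It came nearest, with a log2 difference of -0.43 (SE 0.15, adjusted p = 0.255) and an exact permutation p of 0.025 within stages. It was lower by 0.51 at 8 dpc and by 0.35 at 16 dpc on the log2 scale. The interaction asked whether the difference between vectors itself differed between stages, and none of the 10 genes and 0.00% of all genes passed it in edgeR, with 376 of the 12172 genes (3.09%) at an unadjusted p under 0.05. The interaction of Ccng1 was 0.73 on the log2 scale (SE 0.30, adjusted p = 1.0; unadjusted p = 0.0293; exact permutation within stages, p = 0.045), so the difference in Ccng1 between vectors, -0.60 at 8 dpc and 0.13 at 16 dpc, was not shown to differ between stages once all genes were considered.

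Pregnancy was then followed in AAV8-null livers. At 8 dpc against NP no gene of the 10 passed the test or had an unadjusted p under 0.05, and voom called 3 (Sesn2, Phlda3 and Bbc3), where it called 15.2% of all genes. With edgeR no gene of the 12172 passed (0.00%), although 803 genes had an unadjusted p under 0.05 and DESeq2 called 70 genes (0.575%). Log2 fold changes were above 0 in 8 of the 10 genes with a median of 0.39, beside -0.01 over all genes, of which 51.0% were below 0. Ccng1 (0.28, SE 0.21, adjusted p = 1.0) and Zmat3 (0.46, SE 0.24, adjusted p = 0.849) were higher and Sesn2 (-0.41, SE 0.20, adjusted p = 0.821) lower without overlap of the ranges, which held for 10.2% of all genes. Mdm2 was at 0.32 (SE 0.19, adjusted p = 0.909) with all mice and at 0.10 without mouse 3 of the 8 dpc group. Phlda3 (0.75), Bbc3 (0.63), Eda2r (1.20) and Trp53inp1 (0.50) depended on single livers. Phlda3 ran from 0.22 without mouse 1 at 8 dpc to 1.94 without NP mouse 1 (unadjusted p = 0.00791, adjusted p = 0.224). Bbc3 ran from 0.33 without NP mouse 2 to 1.48 without NP mouse 1 (unadjusted p = 0.0187, adjusted p = 0.310). Eda2r was at 0.42 without mouse 1 at 8 dpc, and Trp53inp1 turned to -0.71 without mouse 3 at 8 dpc. Trp53 (0.07) also changed sign with the library left out, from -0.12 to 0.41. Beside these differences the summed markers of stellate cells or fibroblasts were 84.6 to 138 CPM at 8 dpc against 161 to 185 CPM in NP livers and those of neutrophils were higher at 8 dpc without overlap, as given above, and the part of these cell types was not tested.

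At 16 dpc against NP, Ccng1 fell. Its log2 fold change was -0.83 (SE 0.22, adjusted p = 0.0331), 1.78-fold lower, and every liver at 16 dpc was below every NP liver. It was 1 of 10 genes called, all genes being called in 6.52% of cases and as lower in 2.82%. This call depended on the libraries and the fit: it remained in 1 of the 6 fits that left out 1 library (without mouse 3 at 16 dpc, log2 fold change -1.09, adjusted p = 0.0116), and in the other 5 fits the adjusted p was between 0.0624 and 0.108 at log2 fold changes of -0.90 to -0.59. Zmat3 was higher without overlap (0.29, SE 0.24, adjusted p = 0.528), where ranges did not overlap in 24.6% of all genes. Beside these differences the summed markers of cholangiocytes were 8.41 to 17.3 CPM at 16 dpc against 19.7 to 31.4 CPM in NP livers, those of lymphocytes 0.833 to 1.96 against 2.07 to 3.32 CPM and those of erythroid cells 109 to 169 against 49.6 to 99.7 CPM. Those of hepatocytes and neutrophils were higher at 16 dpc as given above, and the part of these cell types in the lower Ccng1 was not tested. The other 8 genes overlapped between the groups and were between -0.74 (Trp53inp1, adjusted p = 0.497) and 0.53 (Eda2r, adjusted p = 0.762).

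Ccng1 also fell between 8 and 16 dpc, from a level at 8 dpc that was above that of NP livers, and here the call did not depend on any 1 library. The log2 fold change was -1.11 (SE 0.22, adjusted p = 0.00875), 2.15-fold lower at 16 dpc, with ranges of 14.7 to 30.5 against 46.9 to 53.5 CPM. It was called in each of the 6 fits that left out 1 library, with log2 fold changes of -1.36 to -0.87 and adjusted p-values up to 0.0400, and was at -1.13 (adjusted p = 0.0122) without the liver that stood apart at 8 dpc. It was lost with edgeR on the compared groups alone (log2 fold change -1.13, adjusted p = 0.0673). The exact permutation test gave p = 0.1, the smallest it allows. Among the 10 genes 1 was called, beside 6.87% of all genes and 3.71% called as lower. Log2 fold changes were below 0 in 9 of the 10 genes, against 49.6% of all genes, with a median of -0.53 beside 0.00 over all genes, and only Sesn2 was above 0 (0.21, SE 0.20, adjusted p = 0.583). This median depended on single livers, at -0.18 without mouse 2 at 16 dpc, -0.29 without mouse 1 at 8 dpc and -0.76 without mouse 1 at 16 dpc.

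Among the others, Phlda3 was lower at 16 dpc than at 8 dpc without overlap (-0.98, SE 0.65, adjusted p = 0.402), where 25.4% of all genes did not overlap, and its difference was -0.45 without mouse 1 at 8 dpc. Trp53inp1 had a log2 difference of -1.23 (SE 0.57, adjusted p = 0.218) that rested on mouse 3 at 8 dpc, since it was -0.03 without that liver. Bbc3 was at -1.02 (SE 0.57, adjusted p = 0.305). Beside these differences the summed markers of endothelial cells were 81.3 to 113 CPM at 8 dpc against 160 to 215 CPM at 16 dpc, those of cholangiocytes were 18.0 to 26.8 against 8.41 to 17.3 CPM, and those of stellate cells or fibroblasts were 84.6 to 138 against 169 to 246 CPM. Those of erythroid cells were 89.3 to 102 against 109 to 169 CPM, those of hepatocytes were several-fold higher at 16 dpc as given above, and the part of these cell types in the lower Ccng1 was not tested.

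**Figure D3:**
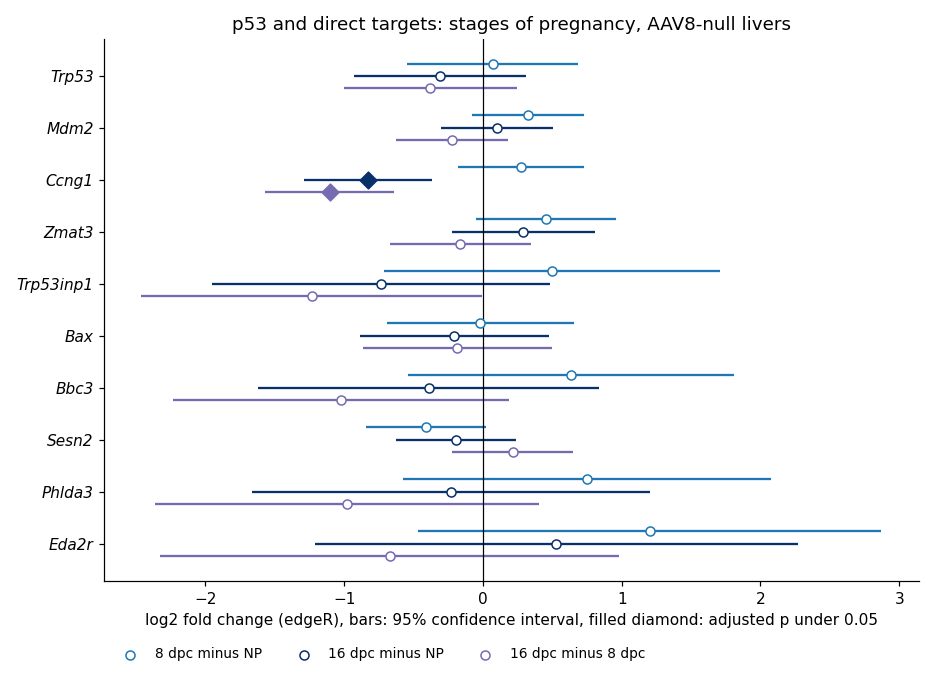
Log2 fold change of the 10 genes between stages in AAV8-null livers (8 dpc minus NP, 16 dpc minus NP, 16 dpc minus 8 dpc), with 95% confidence intervals from edgeR and filled diamonds at an adjusted p under 0.05. Ccng1 is the only gene with filled diamonds, at -0.83 for 16 dpc minus NP and -1.11 for 16 dpc minus 8 dpc.

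In AAV8-p21 livers none of the 10 genes passed the test between 8 and 16 dpc, where 3.32% of all genes did. Trp53 alone had an unadjusted p under 0.05 (0.0407), where 16.4% of all genes did. It was also the only one of the 10 called by voom, which called 14.9% of all genes. Ccng1 was lower at 16 dpc by a log2 difference of -0.37 (SE 0.21, adjusted p = 0.418) and Trp53 by -0.65, both without overlap of the ranges, and Sesn2 was higher without overlap (0.37, SE 0.21, adjusted p = 0.403), beside 22.9% of all genes without overlap. The summed markers of hepatocytes were 268529 to 300831 CPM at 16 dpc against 105528 to 127664 CPM at 8 dpc and those of endothelial cells 158 to 173 against 106 to 140 CPM, and their part was not tested. That Ccng1 fell in AAV8-null and did not pass the test in AAV8-p21 livers is not by itself a difference between vectors, and the interaction given above is the test of it.

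The other genes of the pathway were read from lists that were written from general knowledge. Of 59 other direct p53 targets, 53 were tested, and edgeR called none for AAV8-p21 against AAV8-null at 8 dpc, at 16 dpc or over both stages. At 8 dpc voom called 2 (0.863% of all genes). DESeq2 called 0 on all 15 libraries (0.255%) and 2 on the compared groups alone (0.616%), edgeR called 1 without mouse 3 of the AAV8-null group (0.307%), and 8 were lower at an unadjusted p under 0.05 (2.69% of all genes). At 16 dpc voom and DESeq2 each called 1 (0.961% and 1.17% of all genes), and 5 were at an unadjusted p under 0.05 (9.77% of all genes). Over both stages voom and DESeq2 each called 2 (2.11% and 1.73% of all genes), and 8 were at that level (12.4% of all genes). Their median log2 fold changes were -0.12 at 8 dpc and -0.03 at 16 dpc. In AAV8-null livers 3 of the 53 were called between NP and 16 dpc by edgeR, where 6.52% of all genes were. DESeq2 called 6 (9.95% of all genes) and voom 10 (13.2%). Btg2, an antiproliferative gene that is also an immediate-early gene, rose from 10.2 ± 1.95 CPM (SD, n = 3) to 80.2 ± 46.7 CPM (log2 fold change 2.97, SE 0.46, adjusted p = 0.00140). Plk2, a polo-like kinase of the centrosome, rose from 6.55 ± 0.318 to 34.3 ± 21.4 CPM (2.38, SE 0.33, adjusted p = 0.000659). Fdxr, the mitochondrial ferredoxin reductase, fell from 14.5 ± 1.22 to 5.52 ± 1.70 CPM (-1.39, SE 0.29, adjusted p = 0.0106). Each of these 3 calls held in all 6 fits that left out 1 library.

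Between 8 and 16 dpc in AAV8-null livers, 7 of the 53 were called, where 6.87% of all genes were. Btg2 (1.91, adjusted p = 0.0190) and Plk2 (1.84, adjusted p = 0.00388) rose, and 5 genes fell. Among those that fell were Fdxr (-1.47, SE 0.29, adjusted p = 0.00840) and Steap3, a metalloreductase of iron uptake (-1.13, SE 0.23, adjusted p = 0.0121). Ckap2 (-3.70, SE 0.98, adjusted p = 0.0367) and Gtse1 (-2.39, SE 0.66, adjusted p = 0.0447) fell too, and both encode proteins of the mitotic spindle or of G2 and S phase, so that they are genes of dividing cells as well as p53 targets. Ckap2 was at 13.97, 14.8 and 1.144 CPM at 8 dpc and between 0.250 and 1.78 CPM at 16 dpc, so its ranges overlapped through mouse 3. Without that mouse 10 of the 53 and 10.3% of all genes were called. Leaving out mouse 2 called 2 of the 53 at either stage, where 2.08% of all genes were called (mouse 2 at 8 dpc) or 2.91% (at 16 dpc). It was 3 without mouse 1 at 8 dpc (2.32% of all genes), 3 without mouse 3 at 16 dpc (3.64%) and 6 without mouse 1 at 16 dpc (6.10%). Plk2 and Fdxr were called in all 6 of these fits, Steap3 in 4, Btg2 and Ckap2 in 2 and Gtse1 in 1. In AAV8-p21 livers Btg2 (2.32, SE 0.44, adjusted p = 0.00996) and Plk2 (1.62, SE 0.32, adjusted p = 0.0119) also rose between 8 and 16 dpc, and edgeR called no other target. DESeq2 called 5 targets (6.69% of all genes) and voom 9 (14.9%). Btg2 lost its call without mouse 1 at 8 dpc, and Plk2 lost it without mouse 2 at 8 dpc and without 1 of the unnumbered livers at 16 dpc (adjusted p = 0.0638 for Btg2, and 0.0668 and 0.0553 for Plk2).

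The regulators of p53 did not pass the edgeR test in any comparison. Of 25 listed, which include partners of Mdm2, kinases that respond to DNA damage and ribosomal proteins that bind Mdm2, 23 were tested and none was called. Other tools called some between stages. At 8 dpc against NP in AAV8-null livers voom called 5 of the 23, where it called 15.2% of all genes. Between 8 and 16 dpc voom and DESeq2 each called 2 there, where voom called 1707 of the 12172 genes and DESeq2 called 1374 (11.3%). Between the same stages under AAV8-p21, voom called 3 (14.9% of all genes) and DESeq2 called 2 (6.69%). DESeq2 also called 1 at 16 dpc against NP (9.95%). At an unadjusted p under 0.05 edgeR had 0 to 3 of the 23 in each comparison. Of all genes, from 3.09% (interaction) to 22.7% (16 against 8 dpc in AAV8-null livers) were at that level. Their median log2 fold change was -0.13 for AAV8-p21 against AAV8-null at 8 dpc and -0.06 at 16 dpc.

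The genes that p53 turns down through p21 and the DREAM complex were compared because p21 is what the vector supplies. Of 18 listed, 16 were tested. At 8 dpc none was called for AAV8-p21 against AAV8-null, but all 16 had log2 fold changes below 0, with a median of -2.29, and 12 had an unadjusted p under 0.05, where 2.69% of all genes were lower at that level. DESeq2 called 2 of them and voom called 6, where these called 0.255% and 0.863% of all genes. Without mouse 3 of the AAV8-null group, 2 were called, beside 0.307% of all genes. None was called without mouse 1 (0.0162% of all genes) or without mouse 2 (0.0161%). Mouse 3 was set apart by low levels of genes of cell division, with Cdc20, which is on this list. The fit without it therefore gives no separate support. In AAV8-null livers at 8 dpc against NP edgeR called none, but all 16 had log2 fold changes above 0, with a median of 2.83, and 14 had an unadjusted p under 0.05, where 3.23% of all genes were higher at that level. DESeq2 called 3 of them (0.575% of all genes) and voom all 16 (15.2%). EdgeR called 6 without mouse 3 at 8 dpc (0.744%) and none without mouse 1 or without mouse 2 at 8 dpc (0.00% each). The shifts of these 16 genes at 8 dpc and their change to 16 dpc share the same AAV8-null livers at 8 dpc and are not independent. At 16 dpc against NP the median was -0.21 and none had an unadjusted p under 0.05 (21.2% of all genes). None was called by DESeq2 (9.95% of all genes) or voom (13.2%) in that comparison. Between 8 and 16 dpc 7 fell, where 3.71% of all genes were called as lower, among them Foxm1, a transcription factor of G2 and mitosis (-4.30, SE 1.12, adjusted p = 0.0343), Cdc20 (-4.26, SE 1.09, adjusted p = 0.0319), the topoisomerase Top2a (-3.81, SE 0.87, adjusted p = 0.0189) and cyclin B1, Ccnb1 (-3.59, SE 0.91, adjusted p = 0.0306). All 16 were called when mouse 3 at 8 dpc was left out (10.3% of all genes) and 8 without mouse 1 at 16 dpc (6.10%), and none was called without mouse 1 or 2 at 8 dpc or without mouse 2 or 3 at 16 dpc. At 16 dpc none was called for AAV8-p21 against AAV8-null, with a median of -0.43. The 10 genes and the 53 other targets thus had medians nearer to 0 than these 16 genes in the same comparison at 8 dpc, as counts and medians of lists that were not tested against each other.

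**Figure D4:**
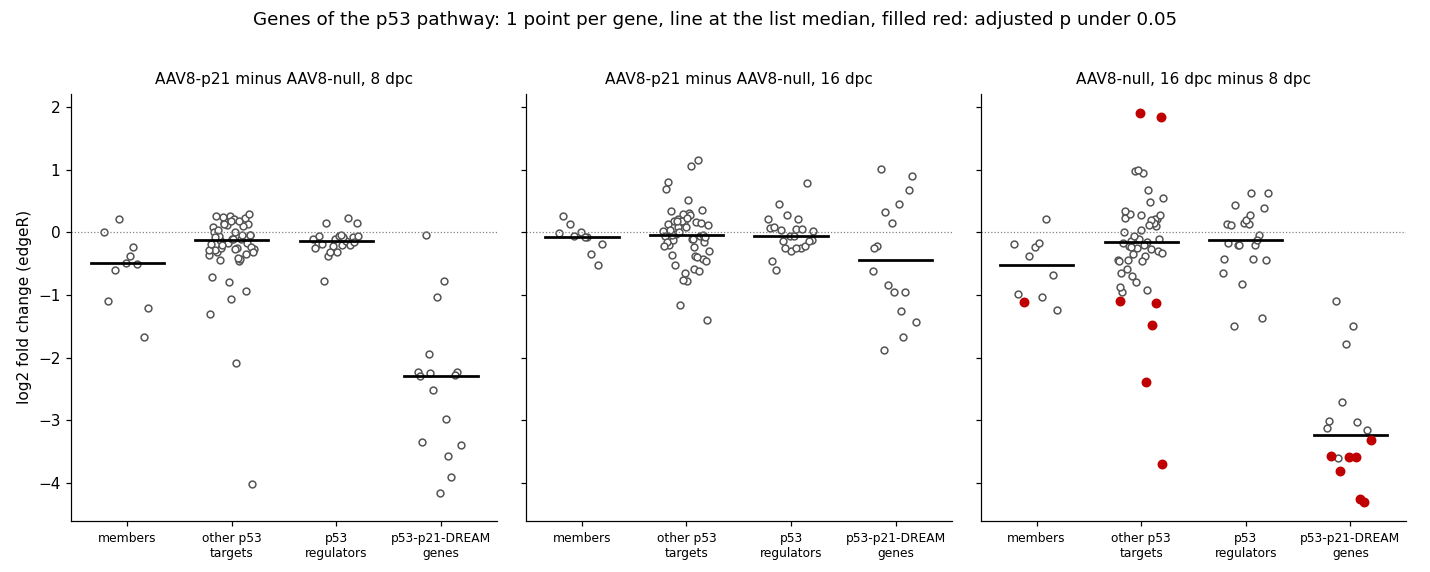
Log2 fold changes of the 10 genes (labelled members), the 53 other p53 targets, the 23 regulators and the 16 p53-p21-DREAM genes, with 1 point per gene, a line at each list's median and red points at an adjusted p under 0.05, for AAV8-p21 against AAV8-null at 8 and 16 dpc and for 16 against 8 dpc in AAV8-null livers. At 8 dpc the DREAM genes have a median of -2.29 and the 10 genes one of -0.49, and red points appear only in the comparison of stages.

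The 10 genes were also compared from liver to liver. Pearson correlations of log2 CPM between pairs of them over the 15 livers, which share groups and library preparation, ran from -0.49 (Trp53 with Sesn2) to 0.71 (Mdm2 with Zmat3). Other pairs above 0.60 were Bax with Phlda3 (0.70), Phlda3 with Eda2r (0.66), Trp53 with Bax (0.64) and Mdm2 with Trp53inp1 (0.61). Trp53 and Mdm2 had a correlation of -0.23 and Trp53 and Ccng1 one of 0.58. The genes of the whole table whose log2 CPM was most like that of Trp53 over the 15 livers were Gmpr2 (Pearson r 0.958), Thyn1 (0.926) and Tmem179b (0.919). Those most like Mdm2 were Ppp2r5c (0.799), Smim13 (0.785) and Cox6b2 (0.770), and those most like Ccng1 were Map3k20 (0.925), Ganc (0.918) and Zfp874a (0.908). These values are the highest of 12172 genes for each and are given as a description.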

How the data were processed

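Whole-liver RNA was sequenced in 15 libraries, 3 for each of 5 groups given by the sample labels. The authors made stranded mRNA libraries, removed adapters from single-end reads with cutadapt 1.14, mapped them to mm10 with HISAT2 2.1.0 and, with HTSeq 0.12.4, counted the reads with 1 mapping position in each protein-coding gene (versions as in the submitters' processing notes), and the deposited values are these raw counts. Whether the counting used the strand is not given in the sources used here. For the AAV8-p21 livers at 16 dpc the numbers in the table do not all match the labels, so these libraries carry no number. The study calls the 3 per group individual samples, taken here as separate mice, and p-values measure only the spread between them, which may be technical.

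Counts were tested with the quasi-likelihood test of edgeR 4.0.16 (R 4.3.3) with TMM normalization, filterByExpr (minimum count 10; 12172 genes), 1 model of 5 groups (10 residual degrees of freedom, BCV 0.277) and Benjamini-Hochberg adjustment over all genes tested. A gene is called at an adjusted p under 0.05, with no fold threshold. SE and 95% confidence intervals come from this fit. Single values were also tested by exact two-sided permutation of log2(CPM + 0.5), within stages (400 permutations) for averages and interactions. DESeq2 1.42.0, which the study's methods name with the Wald test, and limma 3.58.1 (voom with sample weights) were alternatives, and all tests were first tested on simulated data. Levels per kilobase and positions use GENCODE M21 on GRCm38 (21588 of 21702 genes found), the build but not the release of the counting. Figures were drawn with matplotlib 3.10.9.

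The 10 genes and the lists were chosen with earlier results of these data known. Named genes are the 10, Cdkn1a, markers of cell types, in each list and comparison at most the 4 called genes with the largest change each way, and the 3 genes most like Trp53, Mdm2 and Ccng1.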

Additional observations from a re-analysis of the deposited data

How the results depend on the processing

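Ccng1 kept its direction for 16 dpc against 8 dpc and against NP in AAV8-null livers under every alternative run, and its call varied. For 16 dpc against 8 dpc it was called in 9 of 10 alternatives and lost with edgeR on the compared groups alone (0 of the 10 genes called; adjusted p = 0.0673). For 16 dpc against NP it was called in 5 of 10, and 0 of the 10 genes were called with a log2 fold threshold of 1, with edgeR on the compared groups (adjusted p = 0.155), with DESeq2 on the compared groups (adjusted p = 0.0970), and with edgeR on the 12 numbered libraries alone, an alternative chosen after seeing the data (adjusted p = 0.0507). Leaving out 1 library in turn gave 0 to 1 genes called. Voom called 3 of the 10 genes for 8 dpc against NP (Sesn2, Phlda3 and Bbc3), where it called 15.2% of all genes. It called 1 for 16 against 8 dpc in AAV8-p21 livers (Trp53, log2 fold change -0.69, adjusted p = 0.0317), where it called 14.9% of all genes. The causes were not tested. No result changed to the opposite direction as a call.

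Same-numbered mice did not deviate together in all pairs (correlations of -0.58 to 0.47), so the numbers do not pair them. With the replicate block on the 12 numbered libraries, 0 of the 10 genes were called for 16 dpc against NP (Ccng1 -0.85, adjusted p = 0.0748), as on the same libraries without the block, so the block itself changed no count of the 10 genes. No paired fit was possible for AAV8-p21 at 16 dpc because its columns carry no matching number.

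The counts of all genes called moved by more than 1.5 times, with the lowest and highest over the alternatives: 9 for AAV8-p21 against AAV8-null at 16 dpc (3 to 142), 3 at 8 dpc (0 to 105), 16 over both stages (5 to 257), 0 for 8 dpc against NP (0 to 1850), 794 for 16 dpc against NP (399 to 1602), 836 for 16 against 8 dpc (338 to 1707) and 404 in AAV8-p21 livers (319 to 1817). Of the lists, the other targets called between 8 and 16 dpc in AAV8-null livers, 7 in the main result, ranged from 2 to 11 and the DREAM genes, also 7, from 0 to 12. Eda2r and Phlda3 had at most 88 and 53 counts in any library, and how far depth sets their errors was not tested.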
